A study of Mus musculus with 86 samples.

Results

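The oligos described here are the reporter oligos whose 4-thiouridine (4SU) label could be measured in every SLAM-seq library taken at the end of labelling, before any chase. They were chosen by depth alone: an oligo entered when at least 1000 T positions had been read over it in each of the 5 libraries used, and 10613 of 11955 oligos did. Each oligo is a 260-nt piece tiled over a mouse 3′ UTR, which the study's design extended by 260 nt at either end, so oligos at the ends can hold flanking sequence. Neighbouring oligos of a UTR start 6 nt apart, so oligos whose tiling numbers differ by 43 or less share sequence. The series holds RNA-seq, reporter, binding and SLAM-seq libraries. The libraries used here are 3 from knockout cells and 2 from wild-type cells, all of CAD cells, a mouse neuronal line, and all collected at 0 h of chase after 24 h in 4SU. Both genotypes are the same TetOff TDP-43 cells: a clone without endogenous TDP-43 in which doxycycline shuts off an HA-tagged TDP-43 transgene. The cells called wild type received no doxycycline, and those called knockout received it (2 µg/mL for 48 h per the labels), so the drug itself and the loss of TDP-43 cannot be told apart. The transfected plasmid pool and the serum-free medium were common to both groups.

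TDP-43 is an RNA-binding protein that recognises GU-rich sequence and acts in splicing, transport and decay of its targets. In SLAM-seq, 4SU taken up from the medium replaces some uridines in newly made RNA, and after alkylation these are read as C, so the share of T positions read as C (the T>C rate) follows the share of RNA made during labelling. At the end of a labelling period the rate of a reporter depends on its decay and on how its synthesis varied over time. A reporter that turns over slowly keeps more unlabelled RNA from before the label.

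Oligos fall into 3 classes by their names. A motif oligo carries stretches of the TDP-43 motif GUGUG, of the same letters shifted by a base (UGUGU), or of the related motif GUAUG, its mutated version has those stretches replaced, and the remaining oligos carry no motif. The number of stretches is used below as a measure of motif content, and adjoining motifs count as 1 stretch, so a long GU repeat is 1 stretch of many bases. The oligos tested comprised 3938 motif oligos, 3893 mutated versions and 2782 oligos with no motif. Another 1342 oligos missed the minimum, of which 581 had no T position in any of the 5 libraries. The 5 oligos just inside had a lowest library of 1001 to 1032 T positions and the 5 just outside one of 968 to 999.

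The following 30-base windows, as DNA, come from natural motif oligos with some of the largest differences in label. They show what kind of motif content lay behind oligos on either side. Capitals mark bases in a motif stretch, coordinates are mm10, and each oligo lies wholly within the 3′ UTR of its gene in GENCODE M21. The window is the one with most motif bases in its oligo.
Lrrc47.71 (higher in knockout; chr4:154020278-154020307, plus strand): gGTGTGgGTATGctgcagGTGTGgGTGTGc
Fam160b2.239 (higher; chr14:70583680-70583709, minus strand): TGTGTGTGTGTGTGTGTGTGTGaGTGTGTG
Spock2.282 (higher; chr10:60133068-60133097, plus strand): TGTGTGTGTGTGTGTGTGTGTGTGTGTGTG
Ksr2.1443 (higher; chr5:117774280-117774309, plus strand): aatgaatggatagGTATGtgaatgaatgga
Ksr2.655 (lower in knockout; chr5:117769609-117769638, plus strand): ttttccaactcaaGTGTGaactttgttgat
Fam219a.159 (lower; chr4:41519282-41519311, minus strand): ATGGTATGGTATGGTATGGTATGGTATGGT
Diras1.235 (lower; chr10:81020258-81020287, minus strand): GTGTGTGTGTGTGaagggggagaGTGTGTG
Dense motif sequence stood in oligos that differed in either direction, so motif density in a window alone did not separate them.

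The 5 libraries held 12911551 to 17049312 reads, and a tested oligo had a median of 50249 T positions in a library. Over all oligos, 1.81%, 1.83% and 1.91% of T positions were read as C in the 3 knockout libraries and 1.94% and 1.93% in the 2 wild-type libraries. Libraries from cells without 4SU, all labelled minus doxycycline, gave 0.244%, 0.194% and 0.164%. The knockout libraries thus lay below both wild-type libraries, and each oligo was therefore measured against its own library's rate over all oligos. With 3 libraries against 2, an exact two-sided permutation test over libraries cannot give a p below 0.1, so tests rest on a model fitted across all oligos.

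The libraries also fell into 2 sets by the number of bases counted per read, which neither the labels nor the file headers mention. The set with 181.5 to 182.3 bases per read held the 3 knockout libraries at 0 h, knockout replicate 1 and all 3 wild-type libraries at 12 h, and the libraries without 4SU. The other set, with 175.6 to 176.4 bases per read, held both wild-type libraries at 0 h and knockout replicates 2 and 3 at 12 h. The study's methods describe triplicates, and 2 wild-type libraries at 0 h were used here. Since libraries of both genotypes and times share a set, the labels were checked by the read share of the motif-rich Lrrc47 oligos described below, over that of oligos with no motif. On the log2 scale it was 1.34 to 1.64 in all 6 libraries labelled knockout and 0.63 to 0.81 in all 5 labelled wild type, whichever set they belonged to. Among the libraries without 4SU, all labelled minus doxycycline, it was 2.03 in replicate 1 and 0.21 and 0.49 in replicates 2 and 3, so replicate 1 stood with the knockout libraries. The bases counted per read of an oligo correlated at 0.938 to 0.983 within a set and at 0.732 to 0.772 between sets (Pearson, over 10613 oligos). At 0 h the set and the genotype are the same split, so the difference between genotypes described below cannot be told apart from a difference between the sets within these 5 libraries. Other kinds of mismatch, which 4SU does not produce, give a measure of the background of calls in the same comparison: T>G rates were called higher for 210 oligos (1.98% of those tested) and lower for 145 (1.37%), A>G for 113 (1.07%) and 97 (0.916%), C>T for 75 (0.712%) and 57 (0.541%), and T>A for 7 (0.066%) and 60 (0.566%).

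Against that background, 200 oligos (1.88% of 10613) held more label in knockout cells relative to their library and 122 (1.15%) held less, at an FDR of 0.05 in edgeR's quasi-likelihood test. The number of T>C calls was thus close to that of T>G calls, and the counts alone do not set the label apart from other mismatches. Changes were small: the called rises ran from 0.10 to 0.67 and the called falls from -0.09 to -0.79 on the log2 scale of the odds of conversion, around a median of -0.01 over all oligos. Of the rises 76 (38.0%) and of the falls 27 (22.1%) were oligos also called for T>G, A>G or C>T, compared with 4.45% of oligos not called for T>C. With every oligo called for such a mismatch left out and the p-values of the same fit adjusted anew, there were 114 rises and 84 falls. The count also depended on the test: limma on log2 rates called 2 and 2, and a fit over all 11 labelled libraries called 0 in either direction. At an unadjusted p under 0.05 these had 1228 and 154 oligos and the edgeR fit over the 5 libraries 1471. With the rate not taken relative to its library, 65 oligos were higher and 419 lower, so 13.4% of calls were rises compared with 62.1% in the relative scale and 71.8% relative to the median oligo. A fit with the library set as a term, over all 11 labelled libraries, called 598 higher and 844 lower. In that fit the set is estimated from the knockout libraries at 12 h, where T>C rates over all oligos differed between its 2 sides (1.37% in replicate 1 against 0.465% and 0.511% in replicates 2 and 3). Within these 3 libraries of 1 genotype, edgeR called T>C higher in the set with more bases per read for 435 of 10595 oligos (4.11%) and lower for 342 (3.23%), and T>G for 122 (1.15%) and 66 (0.623%), with 1 residual degree of freedom.

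The rises lay mostly in motif oligos and the falls did not. Of 3938 motif oligos 150 were higher and 48 lower. Of 3893 mutated versions 25 were higher and 33 lower, and of 2782 oligos with no motif 25 were higher and 41 lower. T>G calls were divided otherwise, with 87 higher and 75 lower among motif oligos and 92 higher and 16 lower among mutated versions. Class medians were close to each other, at -0.004 for motif, -0.02 for mutated and -0.01 for no motif oligos.

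Within the motif class, the share of oligos with a rise grew with the number of stretches. Among motif oligos with 1 stretch, 12 of 1918 rose and 17 fell. With 2 stretches 8 of 947 rose and 22 fell, and with 3 to 5 stretches 34 of 725 rose and 8 fell. With 6 to 10 stretches 32 of 267 (12%) rose and 1 fell, and with 11 or more 64 of 81 (79.0%) rose and 0 fell, with 76 higher and 0 lower at an unadjusted p under 0.05. The median change of these groups went from -0.01, -0.01 and 0.002 to 0.05 and then 0.20. Fewer of their mutated versions were called. Where 11 or more stretches had been replaced, 2 of 81 rose, with a median of 0.07. At an unadjusted p under 0.05, 13 of these were higher and 0 lower. Where 6 to 10 had been replaced, 0 of 234 rose in the edgeR fit, with a median of -0.03. Here 7 were higher and 18 lower at an unadjusted p under 0.05. Limma called 0 rises in the natural and in the mutated oligos of both groups, so its calls do not separate the versions. In both groups mutated versions had fewer reads and fewer T positions per read than the natural oligos, so these call counts do not compare the versions at equal depth. Leaving Lrrc47 out, 30 of 256 motif oligos with 6 to 10 stretches and 34 of 720 with 3 to 5 rose. Of these, 21 of the 30 and 8 of the 34 came from Fam160b2, among 41 and 45 oligos tested there, many of them overlapping. With 6 to 10 stretches Cacna1b had 3 rises in 39 oligos, Kcnj12 2 in 29, Diras1 1 in 80 and Fam219a 0 in 39. Shares without both Lrrc47 and Fam160b2 were not taken. The 81 oligos with the highest motif content all come from a single region, however, and so are not 81 separate observations.

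That region is the start of the Lrrc47 3′ UTR. Lrrc47 encodes a leucine-rich repeat protein, and oligos 1 to 81 of its UTR cover chr4:154019777-154020516 (mm10, plus strand), where units such as the one printed for Lrrc47.71 recur. The median T>C rate of these 81 motif oligos was 1.59%, 1.65% and 1.71% in the knockout libraries and 1.49% and 1.5% in the wild-type libraries. All 3 knockout libraries lay above both wild-type libraries although their rates over all oligos were lower. Relative to the library, the medians were 0.878, 0.901 and 0.899 in knockout cells and 0.766 and 0.779 in wild-type cells. These reporters therefore held less label than the average reporter in both genotypes, and the deficit was smaller in knockout cells. Relative rates of the 2 genotypes did not overlap for 78 of the 81, all with knockout higher, where 13.3% of all oligos were apart in that direction and 16.9% in the other.

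The mutated versions of the same 81 oligos did not show the deficit. Their medians relative to the library were 1.03, 0.999 and 0.997 in knockout cells and 1.0 and 0.967 in wild-type cells. The spread of the 3 knockout values overlapped the wild-type ones. Mutation also removed T positions, leaving a median of 38.3 per read compared with 66.5 in the natural oligos, so the rate is taken over fewer and partly different positions. Without 4SU the medians were 0.225% for mutated and 0.200% for natural oligos. In the same 81 natural oligos T>G was called higher for 1 and lower for 18, with a median change of -0.31, and 24 of the 81 were called for T>G, A>G or C>T. Of the 57 left, 41 were called higher for T>C.

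The tiling shows where in Lrrc47 the difference stops. From oligo 2 to oligo 85, 66 of 84 natural oligos were called higher and 0 lower, and all 84 had a positive change. Of the other 159 natural oligos of Lrrc47 tested, edgeR called 0 in either direction, with a median change of -0.03. At an unadjusted p under 0.05, 2 of them were rises and 14 falls. Some of them carry motifs: the UTR had 154 motif oligos tested, and 66 of them rose. Limma called 0 of the 84 inside as well as 0 of the 159 outside, so its calls do not show where the difference stops. In the fit with the set as a term, 49 of the 81 motif-rich oligos and 19 of their mutated versions were called higher, with medians of 0.48 and 0.47, so the difference between the versions did not appear there. The knockout libraries at 12 h gave a relative rate of 0.950 for the natural oligos in replicate 1, which belongs to the set with more bases per read, and 1.13 and 1.18 in replicates 2 and 3. Wild-type libraries at 12 h, all of that same set, gave 0.674, 0.659 and 0.673. For the mutated versions the 3 wild-type values were 1.11, 1.08 and 1.11, and the knockout values were 1.08 in replicate 1 and 1.43 and 1.34 in replicates 2 and 3. Within the set with more bases per read after the chase, the natural oligos were higher in the knockout library and the mutated ones were not, in a comparison of 1 library with 3. In the knockout libraries of the other set both versions were higher than in wild-type cells. Label left at 12 h also depends on decay during the chase, so these values do not measure the same quantity as the label at 0 h.

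Fam160b2, which encodes a protein of the FHIP family, gave the next group of rises. In its UTR 30 of 210 motif oligos tested rose and 0 fell, and of 191 mutated versions 0 rose and 6 fell. At an unadjusted p under 0.05, 7 motif oligos were lower and 11 mutated versions higher. All 30 rises lay between oligos 186 and 262, a stretch of long GU repeats. The median rate over the 77 natural oligos there was 1.01%, 1.05% and 1.11% in knockout cells and 1.05% and 0.979% in wild-type cells. As read, these medians overlapped between genotypes. Over the 41 motif oligos of Fam160b2 with 6 to 10 stretches, which held 21 of the 30 rises, they did not, at 0.899%, 0.911% and 1.01% against 0.840% and 0.785%. Of the 77, 38 were called for another mismatch, and the median T>G change was 0.58. With the set as a term the 77 had a median T>C change of 0.05, with 3 called higher and 0 lower. Fam160b2.239 had the largest called rise of any motif oligo: its rates were 1.01%, 0.993% and 1.05% in knockout cells and 0.675% and 0.748% in wild-type cells, a change of 0.60 ± 0.08 (SE; edgeR adjusted p = 3.54e-07). The genotypes did not overlap, and 0.183% of its T positions were read as C without 4SU. Its mutated version, read at 1488 to 2432 T positions, had 1.46%, 1.68% and 2.55% against 0.922% and 1.44%, a change of 0.80 ± 0.32 that did not pass (adjusted p = 0.194), with T>G higher by 3.53.

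Spock2, encoding a secreted proteoglycan of the extracellular matrix, and Cacna1b, encoding the pore-forming subunit of N-type calcium channels, had rises in motif oligos too. In Spock2 16 of 334 motif oligos rose (4.79%) and 0 fell, and in Cacna1b 12 of 380 rose (3.16%) and 0 fell. Both shares of rises were near the 3.81% of all motif oligos. Among their mutated versions 2 rose and 1 fell in Spock2, and 0 rose and 1 fell in Cacna1b. At an unadjusted p under 0.05, 16 motif oligos were lower in Spock2, 13 were lower in Cacna1b, and 20 mutated versions were higher in Cacna1b. With the set as a term 4 Cacna1b motif oligos were higher and 38 lower, and in Spock2 21 were higher and 15 lower. The rises of Cacna1b oligos 278 to 311 and Spock2 oligos 6 to 48 had medians of -0.21 and -0.21 in that fit, on the other side of 0. Spock2.282 had 1.87%, 1.69% and 1.89% in knockout cells and 1.5% and 1.21% in wild-type cells (0.48 ± 0.13; adjusted p = 0.0165). Its mutated version had 1.99%, 1.88% and 2.20% against 1.97% and 2.51% (-0.06 ± 0.19; adjusted p = 0.935). The natural oligo thus separated the genotypes and the mutated version did not, but the difference between the 2 changes did not pass its own test (0.57 on the log2 scale; limma adjusted p = 0.605).

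Rises and falls both occurred in Ksr2, which encodes a scaffold of the Ras and MAP kinase pathway. Of its 2167 oligos 30 were higher (1.38%) and 36 lower (1.66%), near the 1.88% and 1.15% of all oligos. Ksr2 oligos 443 to 475 held 14 of its rises, and 18 of the 33 natural oligos tested there were called for another mismatch. With the set as a term these 33 had a median of -0.51, on the other side of 0, with 0 called higher and 24 lower. Ksr2.443, with no motif, had 1.63%, 1.75% and 1.69% in knockout cells and 1.15% and 1.09% in wild-type cells (0.67 ± 0.04; adjusted p = 4.39e-21). T>G moved with it, from 0.0295% and 0.0274% in wild-type cells to 0.102%, 0.0977% and 0.0995% in knockout cells. With the set as a term the change of Ksr2.443 was -0.51, on the other side of 0. The falls centred on natural oligos 644 to 671, where 12 of 26 fell, and on mutated versions 649 to 672, where 9 of 22 fell. Ksr2.655 had 1.13%, 1.07% and 1.07% against 1.76% and 1.61% (-0.56 ± 0.10; adjusted p = 3.08e-05), and its mutated version had 1.24%, 1.25% and 1.29% against 1.76% and 1.63% (-0.37 ± 0.07; adjusted p = 0.000134). Both versions thus fell, with only 10 bases between them changed. T>G of Ksr2.655 differed by -0.01, and the share of library reads over these 26 oligos was lower in knockout cells, by a median of -1.02 on the log2 scale.

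Synj2bp, which encodes an outer mitochondrial membrane protein, had the highest number of falls without motifs. In its UTR 17 of 374 oligos with no motif fell (4.55%, beside 5.19% of 135 in Kank2), and 18 falls lay among the 50 natural oligos from 159 to 208. Synj2bp.173 had 1.06%, 1.31% and 0.956% in knockout cells and 1.58% and 1.69% in wild-type cells (-0.47 ± 0.09; adjusted p = 0.000279). The recombinant protein hardly recovered this region: the median enrichment R, described below, was 0.0111 over its oligos. Kank2, a gene of the KANK family of cytoskeletal regulators, had 2 rises and 16 falls in 497 oligos, Lars2, encoding the mitochondrial leucyl-tRNA synthetase, 0 and 7 in 218, Sos2, a guanine nucleotide exchange factor for Ras, 0 and 5 in 328, and Diras1, a small GTPase, 1 and 7 in 553. The falls were 3.22% of the oligos in Kank2 and 3.21% in Lars2, but 1.52% in Sos2 and 1.27% in Diras1, near the 1.15% of all oligos. At an unadjusted p under 0.05, 6 oligos were higher in Lars2 and 14 in Sos2. In Kank2 7 falls lay in motif oligos, 2 in mutated versions and 7 in oligos with no motif.

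The remaining UTRs had few calls. Kcnj12, an inward-rectifier potassium channel, had 9 rises and 4 falls in 728 oligos, Wasf3, an actin regulator, 6 and 7 in 716, Tub 5 and 3 in 1066, Fam219a 2 and 2 in 622, and Soga3 2 and 2 in 92. In Soga3, with few oligos, this was 2.17% in each direction, beside 1.88% higher and 1.15% lower of all oligos. Ssc5d had 0 of 97 called by edgeR, with 3 higher and 8 lower at an unadjusted p under 0.05. Limma, which called few oligos anywhere, called 0 there as well. UTR medians ran from -0.03 in Kcnj12 to 0.03 in Lrrc47, a narrow range beside the differences of single oligos.

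The largest called fall was that of Kcnj12.412, a motif oligo with 5 stretches. Its rates were 1.28%, 1.13% and 1.26% in knockout cells and 2.22% and 2.17% in wild-type cells (-0.79 ± 0.07; adjusted p = 1.73e-14). Its T>G rate also separated the genotypes, at 0.299%, 0.301% and 0.246% against 0.677% and 0.781%. Within knockout cells at 12 h its T>C change between the 2 library sets was -2.17, and with the set as a term its change between genotypes was 1.38, so its direction turned. Kcnj12.412 and Ksr2.443 were also among the 4 oligos limma called, and the others were Kcnj12.207, higher, and Cacna1b.380, lower, which edgeR did not call.

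Some pairs of neighbouring oligos moved apart although they share nearly all of their sequence. Soga3.2 rose (1.63%, 1.5% and 1.5% against 1.19% and 1.30%; 0.38 ± 0.07, adjusted p = 0.0001) and Soga3.3, which starts 6 nt further on, fell (0.865%, 0.939% and 1.0% against 1.37% and 1.46%; -0.54 ± 0.11, adjusted p = 0.00118). Neither carries a motif. In both, T>G was far higher in knockout cells, by 4.36 and 4.46 on the log2 scale.

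Diras1.235 fell without a call for another mismatch. It had 1.57%, 1.48% and 1.60% in knockout cells and 2.24% and 2.31% in wild-type cells (-0.50 ± 0.12; adjusted p = 0.00428), with T>G differing by -0.05. Fam219a.159, an oligo of GUAUG repeats, had 1.60%, 1.47% and 1.63% against 2.18% and 2.16% (-0.41 ± 0.08; adjusted p = 0.000357). Fam219a.159, unlike Diras1.235, was called for A>G or C>T as well. Their mutated versions differed by -0.08 ± 0.12 and 0.10 ± 0.17 and were not called. In both cases the natural oligo separated the genotypes, in the direction opposite to Lrrc47, but the difference between natural and mutated version passed neither test (limma adjusted p = 0.352 for Diras1.235 and 0.214 for Fam219a.159, edgeR interaction adjusted p = 0.439 and 0.314). With the set as a term Fam219a.159 changed by 0.66 and Diras1.235 by -0.43, so the direction of the former turned.

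Of the 12 largest non-overlapping rises, 6 were motif oligos, 2 mutated versions and 4 had no motif, and of the 12 largest falls 6, 4 and 2. Rises not yet given were Kcnj12.209 (0.49 ± 0.12), Spock2.366 (0.45 ± 0.14), Synj2bp.307 (0.42 ± 0.06), Ksr2.1457 mutated (0.41 ± 0.10), Ksr2.1443 (0.40 ± 0.12), Lrrc47.9 mutated (0.36 ± 0.10), Lrrc47.71 (0.34 ± 0.07) and Fam160b2.186 (0.34 ± 0.08). Falls not yet given were Diras1.277 mutated (-0.59 ± 0.18), Fam160b2.194 mutated (-0.47 ± 0.14), Kcnj12.361 mutated (-0.47 ± 0.13), Ksr2.671 mutated (-0.40 ± 0.08), Kcnj12.351 (-0.38 ± 0.09) and Sos2.179 (-0.36 ± 0.09). Of the 12 rises and 12 falls, 4 and 3 were also called for T>G, A>G or C>T. Fam160b2.194 mutated stands apart by its background, since 1.26% of its T positions were read as C without 4SU.

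Natural and mutated versions were next compared directly, through the log2 ratio of their rates in each library, in which the library's rate over all oligos cancels. Of 3887 pairs 0 were called in either direction by limma at an FDR of 0.05 (0% of those tested), and 266 had an unadjusted p under 0.05. An edgeR interaction of version and genotype called 20 pairs (0.515%) with a higher change in the natural oligo and 1 (0.0257%) with a lower one. That fit treats the natural and mutated counts of a library as separate samples, so it leaves out the pairing that the limma ratios keep. Of the 20, 9 lay in Fam160b2, 4 in Lrrc47, 2 in Cacna1b, 2 in Fam219a and 1 each in Kcnj12, Diras1 and Spock2. Fam160b2.195 had the largest difference (0.63 ± 0.08; adjusted p = 3.19e-06), made of a change of 0.17 in the natural and -0.46 in the mutated version. It is 1 of 6 of the Fam160b2 pairs whose mutated version lies between oligos 189 and 196. Of the 8 mutated versions tested there 5 fell and 6 were called for another mismatch, with a median T>G change of 1.79, a median of 0.857% of T positions read as C without 4SU, and a median T>C change of 0.80 with the set as a term, on the other side of 0. The part of these in the interaction was not tested.

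The pairs from the Lrrc47 region moved together more than the rest. The median log2 ratio of natural over mutated rate among the 81 pairs was -0.22, -0.19 and -0.16 in knockout cells and -0.34 and -0.31 in wild-type cells. In the median, the natural oligo held less label than its mutated version in every library, and the gap was smaller in all 3 knockout libraries than in both wild-type libraries. Of the 81 pairs 72 had a positive difference, with a median of 0.16, compared with 2100 of all 3887 pairs and a median of 0.01. Lrrc47.71 had 1.72%, 1.82% and 1.97% in knockout cells and 1.46% and 1.58% in wild-type cells, and its mutated version had 1.94%, 1.57% and 1.86% against 1.99% and 2.07%. The natural oligo rose (0.34 ± 0.07; adjusted p = 0.00102) and the mutated version did not pass (-0.12 ± 0.08; adjusted p = 0.573). Lrrc47.9 went the other way, with a mutated version that rose by 0.36 ± 0.10 and a natural oligo that rose by 0.19 ± 0.04. For pairs with 6 to 10 stretches the ratios were -0.43, -0.38 and -0.40 in knockout cells and -0.43 and -0.45 in wild-type cells, so all 3 knockout values lay above both wild-type values, though the closest differed by less than the spread within a genotype.

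Motif oligos with 3 or more stretches held less label than those with 1 in both genotypes. In wild-type cells the median relative rate was 1.02 and 1.01 for motif oligos with 1 stretch, 0.903 and 0.891 with 3 to 5, 0.793 and 0.772 with 6 to 10 and 0.766 and 0.779 with 11 or more. In knockout cells the medians were 1.0, 0.998 and 0.998 with 1 stretch, 0.894, 0.903 and 0.904 with 3 to 5, 0.780, 0.792 and 0.803 with 6 to 10 and 0.878, 0.901 and 0.899 with 11 or more, so the group with most stretches stood level with that of 3 to 5 there. The group with 1 stretch lay slightly below both wild-type libraries in all 3 knockout libraries and the group with 11 or more above them, while the groups with 3 to 5 and 6 to 10 overlapped. The median over all tested oligos lay slightly lower too, at 1.006, 1.005 and 1.003 in knockout cells against 1.016 and 1.012. Mutated versions with 6 to 10 replaced stretches stood at 1.06 to 1.08 in knockout cells and at 1.09 and 1.06 in wild-type cells. Natural and mutated versions thus differed by more than the genotypes did, though their T positions differ in number and sequence.

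Other readouts of the same oligos were set beside the label. In the reporter assay (MPRA), which counts unique molecules (UMIs) per oligo in the soma of fractionated cells, the level of the 81 motif-rich Lrrc47 oligos over the level of oligos with no motif was 2.47 ± 0.04 on the log2 scale in knockout cells and 0.34 ± 0.21 in wild-type cells (mean ± SD over libraries, n = 4 each). For their mutated versions it was 0.19 ± 0.07 and 0.15 ± 0.05. Motif oligos with 6 to 10 stretches had 1.44 ± 0.01 and 0.44 ± 0.17. MPRA soma levels therefore differed between genotypes by far more than the label did, and in both motif groups. In the SLAM-seq libraries themselves the read share of the 81 oligos over oligos with no motif was 1.52, 1.51 and 1.34 in knockout cells and 0.80 and 0.81 in wild-type cells. For motif oligos with 6 to 10 stretches it was 0.74, 0.77 and 0.70 against 0.64 and 0.52, a smaller difference than in the MPRA.

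Across calls, the 200 oligos with a rise in label had a median knockout over wild-type difference of 1.37 in MPRA soma level, the 122 with a fall -0.15 and oligos not called -0.12. Overlapping oligos weigh on such medians, here and for the binding below. Natural Lrrc47 oligos 2 to 85, with 66 of the rises, had a median of 2.14, and Fam160b2 oligos 186 to 262, with 30, had 1.81. Among smaller groups of rises, Cacna1b oligos 278 to 311 had 1.27 and Spock2 oligos 6 to 48 had 1.21. Ksr2 oligos 443 to 475 had -0.13 and Wasf3 oligos 317 to 332 had -0.10. A median without Lrrc47 was not taken. In RNA bind-n-seq at 500 nM recombinant TDP-43, R is the share of an oligo among bound reads over its share in the input. The median R was 5.17 over 148 oligos with a rise, 0.180 over 68 with a fall and 0.636 over 8988 not called, counting oligos with at least 20 input reads. Among motif oligos it was 0.665 with 1 stretch, 1.85 with 3 to 5, 6.02 with 6 to 10 and 5.57 with 11 or more. R was available for 173 of the 267 oligos with 6 to 10 stretches and for none of the 41 from Fam160b2, which held 21 of the 32 rises of that group, so these medians do not describe most of the oligos that rose there.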

How the data were processed

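SLAM-seq libraries of the reporter oligos were used at 0 h of chase (3 knockout, 2 wild type), with the 6 labelled libraries at 12 h and 3 without 4SU beside them. Per oligo, the deposited counts give reads and each base read as each other base, which the authors obtained with a modified PIGPEN after cutadapt trimming and bowtie2 alignment against the reporter sequences. Versions are not given in the sources used here. Removal of PCR duplicates is not stated for these libraries, so T positions are not independent molecules. The deposited MPRA counts of UMIs and RBNS counts of reads were used for description only. All RNA-seq files and the RBNS libraries at other concentrations were not used here.

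The T>C rate is T read as C over T read as T or C. Oligos with at least 1000 T positions in each of the 5 libraries were tested with edgeR 4.0.16 (R 4.3.3; glmQLFit and glmQLFTest on the modelMatrixMeth design, with column totals of converted and unconverted positions as library sizes), which leaves 3 residual degrees of freedom, with Benjamini-Hochberg adjustment over all oligos at an FDR of 0.05. A change is the log2 difference in odds of conversion, knockout minus wild type, beyond that of the library. Pairs of natural and mutated oligos were tested with limma 3.58.1 on log2 rate ratios with 0.5 added to counts. Labels do not say whether replicates are separate cultures, so p-values may measure technical spread. In simulated data with the spread of these libraries within a genotype, the edgeR test recovered 44 of 100 oligos changed by 0.3 and 86 of 100 changed by 0.6 and called 3 of 10413 unchanged ones, over 10613 oligos. The simulation drew each oligo independently and held no difference between library sets, so its 3 calls do not give the error rate of the real comparison. Named oligos were the 12 largest rises and 12 largest falls past the FDR whose relative rates did not overlap between genotypes, skipping any within 43 tiling numbers of a larger one of the same UTR and version, and their companions. The oligos, classes and naming rule were chosen with earlier results of these data known. MPRA levels are log2 CPM of UMIs with 0.5 added, over oligos with at least 20 UMIs in every soma library. Oligos were placed on 14 of 16 UTRs by matching the motif positions in their names to GENCODE M21 transcripts, where 5873 of 5873 natural oligos inside a transcript matched. Kcnj12 and Synj2bp were not placed.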

Additional observations from a re-analysis of the deposited data

Results flagged for a closer look

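In the MPRA, the median soma level of mutated versions with 6 to 10 replaced stretches, relative to oligos with no motif, had 1 wild-type library far from the other 3: its gap to the nearest of them was 0.992 of the whole range of the 4. The values ran from -0.37 to -0.31, and chance flags about 1 in 20 such groups. Of the 8 groups of 4 MPRA libraries examined, the other 7 had no such library, and groups of 2 and 3 SLAM-seq libraries were too small for this check.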

How the results depend on the processing

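Counts of oligos higher and lower were 65 and 419 with the rate not relative to its library, 2 and 2 with limma, 3 and 2 with limma after subtracting the rate without 4SU, 107 and 43 with DESeq2 1.42.0, 0 and 0 over all 11 labelled libraries, and 104 and 26 with the replicate number as a replicate block. Added after seeing the data, the library set as a term gave 598 and 844. Adjusting the p-values anew without oligos called for another mismatch, also added then, gave 114 and 84. Leaving out 1 library gave 99 to 188 higher and 28 to 98 lower, with 99 and 28 without wild-type replicate 2, 130 and 72 without knockout replicate 2, and 77 lower without knockout replicate 1. The cause of these differences was not tested. Minimums of 100 or 5000 T positions, reference to no-motif or median oligos, and leaving out oligos of high background (added later too) kept both counts within 1.5 times. The 81 motif-rich oligos had 24 rises not relative to the library, 0 with either limma fit, 0 over all 11 libraries, 40 with the replicate block, 41 without other-mismatch oligos, and 42 to 55 with 1 library left out. In the same order, Lrrc47 had 24, 0, 0, 42 and 45, and 42 to 60 with 1 library left out. Both lowest values were without wild-type replicate 2. The 81 mutated versions had 0 not relative, 0 with either limma fit, 1 with DESeq2, 0 over all 11 libraries and 19 with the set term, and 0 to 3 with 1 library left out (0 without knockout replicate 1 or either wild-type library, 3 without knockout replicate 3). For pairs, the interaction, also added later, gave 20 and 1, and every limma alternative run gave 0. Named oligos that turned sign with the set term were Ksr2.443 (-0.51), Synj2bp.307 (-0.48), Soga3.2 (-0.25), Kcnj12.412 (1.38), Fam160b2.194 mutated (0.76) and Fam219a.159 (0.66), and none turned under the other alternatives. Same-numbered libraries deviated with correlations of -0.001 and 0.03 over 2 pairs, so the numbers do not pair the samples.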
